A study of Mus musculus with 3 samples.

Results

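HCN channels are the pacemaker channels of excitable cells. They open when the membrane is hyperpolarized, they are made more ready to open by direct binding of cyclic AMP, and the inward current that they carry sets firing rate and resting potential in the heart and in neurons. In the heart, thyroid hormone is known to raise the expression of Hcn2 and Hcn4. The TRα1 binding sites around Hcn2, Hcn3 and Hcn4 were examined here in the striatum. A site was assigned to a gene when its summit, the base with the most fragments, lay in the gene body or within 30 kb of the 5′ end of the gene in the GENCODE annotation of GRCm38. Of the 23988 sites in the peak list, 8 met this rule. They comprised 4 sites at Hcn2, 3 at Hcn3 and 1 at Hcn4. The fourth gene of the family was not analysed here.

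The sites were obtained by ChIP-seq, which sequences the DNA fragments that are pulled down with a protein. The material was striatum from adult male C57BL/6J mice, euthyroid and otherwise untreated, with the genotype TRa1 GS-tagged and an age of 8 weeks. The tagged receptor was made specifically in GABAergic neurons, and the tissue was crosslinked with disuccinimidyl glutarate and then formaldehyde. There were 2 ChIP libraries and 1 input library, all of the tagged genotype, and no untagged control was analysed here. The labels do not say how many animals stand behind a library. One peak list served the whole series, with no value for single libraries, so no difference given here was compared with the spread between replicates. As a check of the labelled cell type, 11 of 12 genes characteristic of striatal projection neurons had a site by the same rule, against 0 of 5 astrocyte, 3 of 5 oligodendrocyte, 2 of 5 microglial and 3 of 5 cardiac muscle genes, beside 57.7% of all protein-coding genes. The median length of the neuronal genes was 33.4 kb, against 17.4 kb for all genes, so that these counts are no firm check. These numbers describe occupancy and not expression.

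TRα1 is a nuclear receptor that binds DNA together with RXR. Its best known element is DR4, in which the half-site AGGTCA occurs in direct repeat with 4 bases between the copies. Sequences of parts of some sites are shown first. They are given 5′ to 3′ on the plus strand of GRCm38, with capitals for AGGTCA and for GGGCGG, the GC box bound by Sp1 and related factors, on either strand. The first, at chr10:79728446-79728646, and the second, at chr10:79729896-79730096, surround the summits of the 2 sites inside Hcn2.

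Hcn2 intron 3: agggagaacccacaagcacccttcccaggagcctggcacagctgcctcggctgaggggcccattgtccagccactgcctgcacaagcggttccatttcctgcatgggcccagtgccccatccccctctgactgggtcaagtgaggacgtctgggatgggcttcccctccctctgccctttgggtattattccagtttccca
Hcn2 intron 4: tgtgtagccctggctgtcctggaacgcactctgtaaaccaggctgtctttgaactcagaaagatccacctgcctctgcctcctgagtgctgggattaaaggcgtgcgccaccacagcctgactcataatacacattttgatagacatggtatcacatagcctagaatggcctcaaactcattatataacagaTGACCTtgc

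The third, at chr3:89182958-89183142, is the part of the strongest Hcn3 site that lies upstream of the neighbouring gene Fam189b. Its half-site lies beyond the printed stretch. The fourth, at chr9:58822853-58822948, is the part of the Hcn4 site upstream of the RefSeq start of Hcn4, and the GC box of that site lies beyond it. Both stretches end before the summit of their site, so they are not like the windows around the Hcn2 summits.

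Hcn3 site at Fam189b: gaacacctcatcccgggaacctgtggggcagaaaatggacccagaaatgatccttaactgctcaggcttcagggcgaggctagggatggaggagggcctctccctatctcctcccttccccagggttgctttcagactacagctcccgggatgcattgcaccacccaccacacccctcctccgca
Hcn4 start: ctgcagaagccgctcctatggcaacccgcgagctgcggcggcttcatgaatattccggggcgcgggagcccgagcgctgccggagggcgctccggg

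Hcn2 held the strongest site by far. Hcn2 encodes the HCN subunit with a strong response to cyclic AMP and lies on chromosome 10 at 79716634 to 79736108, on the plus strand. Its main site extended from 79716088 to 79717624, with the summit 215 bp upstream of the 5′ end. The pileup, the number of ChIP fragments covering the summit, was 110 (95% exact Poisson interval 90.4 to 132.6). Such intervals cover counting error only and say nothing about variation between animals. The local background was 1.69 fragments, its lowest value in the list, and the fold enrichment of pileup over background was 41.3. This site ranked 380 of 23988 by fold enrichment, so that 1.58% of all sites stood higher. Among the 4894 sites within 1 kb of the 5′ end of a protein-coding gene, 2.33% had a higher fold enrichment. A site of at least this fold enrichment was found for 542 protein-coding genes, or 2.47%.

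The Hcn2 start site was also broad. It measured 1537 bp, which 0.475% of all sites exceeded, against a median of 422 bp. It covered 546 bases upstream of the gene, 586 bases of the first exon, of which 551 were coding, and 405 bases of the first intron. Both annotated Hcn2 transcripts start at the same base, and the RefSeq start is identical.

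The other 3 sites at Hcn2 were of ordinary strength. The sites at 79728223 to 79729052 and 79729774 to 79730114 had their summits 11912 and 13362 bp downstream of the 5′ end, in introns 3 and 4. The first of them had 23 fragments at its summit (14.6 to 34.5) and was enriched 8.93-fold. The second had 22 (13.8 to 33.3) and was enriched 8.51-fold. Both values lay a little above the median of 7.40 for all sites. The site in intron 3 was 830 bp long and included 160 coding bases of exons. Within 100 bases of the summit in intron 4, 73.6% of the bases were marked as repeats in the reference sequence, against a median of 5.47% for all sites, and in 4.14% of all sites marked bases outnumbered the rest. The part of repeats in this result was not tested.

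The remaining Hcn2 site, at 79703815 to 79705032, was 12354 bp upstream of Hcn2 but only 211 bp upstream of Bsg. Bsg encodes basigin, a membrane glycoprotein that brings lactate transporters to the cell surface. The site had a pileup of 26 (17.0 to 38.1), a background of 2.30 fragments and a fold enrichment of 8.17. The start of Bsg was thus the nearest start to 1 of the 4 sites, and the start of Hcn2 to the other 3. The site at Bsg also lay within 30 kb of the 5′ ends of Gzmm and Cdc34, which encode granzyme M and a ubiquitin-conjugating enzyme. The Hcn2 start site lay within 30 kb of those of Bsg and Gzmm. The intronic sites lay within 30 kb of those of Bsg, Polrmt and Fgf22. Polrmt and Fgf22 encode the mitochondrial RNA polymerase and a fibroblast growth factor. The rule alone thus does not tie the 4 sites to Hcn2.

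**Figure D1:**
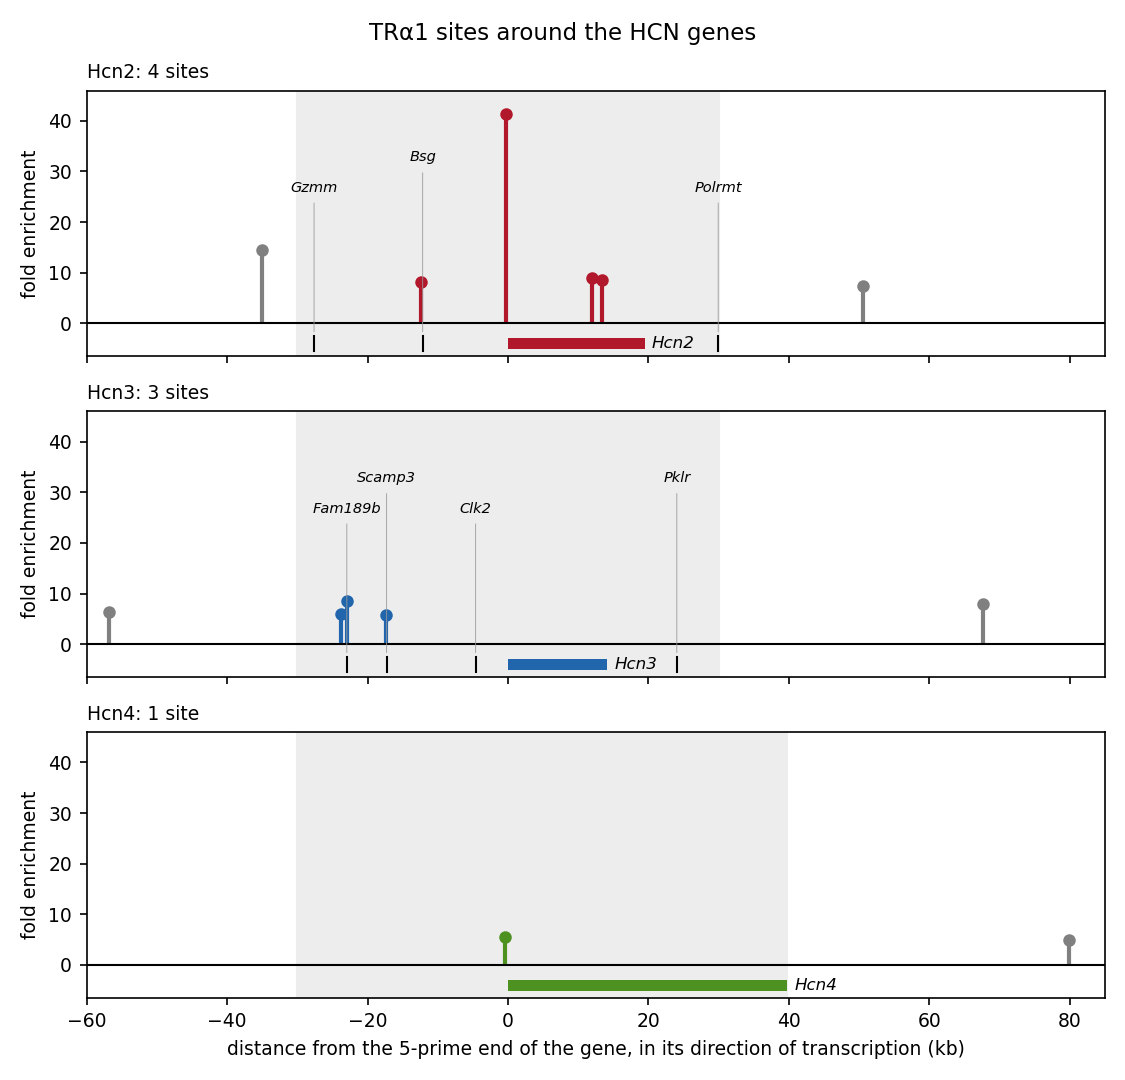
Fold enrichment of TRα1 sites (vertical axis) against the distance of the summit from the 5′ end of Hcn2, Hcn3 or Hcn4 in the direction of transcription (horizontal axis, kb). Coloured points are the 8 sites assigned to the genes, grey points the nearest sites outside the grey search region, coloured bars the gene bodies, and black ticks with names the 5′ ends of other protein-coding genes within 30 kb. The Hcn2 start site, at 41.3, stands above every other site shown, the 3 Hcn3 sites lie at the starts of Scamp3 and Fam189b, and the next site upstream of Hcn4 is beyond the axis.

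None of the sites assigned to Hcn3 had the start of Hcn3 as its nearest start. Hcn3, a subunit with little response to cyclic AMP, lies on chromosome 3 at 89146074 to 89160196, on the minus strand. Its 3 sites were 17321, 22956 and 23706 bp upstream of its 5′ end, and each was nearest to the start of another gene. The site at 89177397 to 89177708 had its summit 44 bp downstream of the 5′ end of Scamp3, which encodes a membrane protein of endosomes. Its pileup was 24 (15.4 to 35.7), its fold enrichment 5.79. The sites at 89182958 to 89183371 and 89183749 to 89184051 had their summits 9 and 759 bp downstream of the 5′ end of Fam189b. Their pileups were 22 (13.8 to 33.3) and 15 (8.40 to 24.7), and their fold enrichments 8.55 and 5.95. The Scamp3 site had the higher pileup but the lower fold enrichment, because its local background was 3.31 fragments against 1.69 at Fam189b. The 3 sites were likewise within 30 kb of the 5′ end of Clk2, a kinase of splicing factors.

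No summit was found in the Hcn3 gene. The peak numbers in the list rose along the chromosome in all 23967 steps between neighbouring sites, so a call removed by the score threshold would leave a missing number if the numbers were given before that step. No number was missing in the 84528 bp between the last site downstream of Hcn3 and the site at Scamp3, a stretch that holds the whole of Hcn3 and its 5′ end.

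Hcn4 had a single and weak site. Hcn4, the main HCN gene of the sinoatrial node and a subunit with a strong response to cyclic AMP, lies on chromosome 9 at 58823412 to 58863175, on the plus strand. The site extended from 58822853 to 58823233, with its summit 350 bp upstream of the GENCODE 5′ end. The RefSeq start of Hcn4 is 463 bp further upstream, and relative to it the summit lies 113 bp inside the transcript. The pileup was 14 (7.65 to 23.5), the lowest value in the list, which 2556 sites shared. The fold enrichment was 5.55 and the score 66, where the list begins at 60, and 4.17% of all sites had a lower score. Among sites within 1 kb of a start, 86.5% had a higher fold enrichment. No summit lay in the gene body, and no peak number was missing in the 79983 bp from this site across the gene to the next one.

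The start sites of Hcn2 and Hcn4 differed beyond counting error. The ratio of their pileups was 7.86 (95% exact interval 4.49 to 14.8). Against the other 6 sites, the pileup of the Hcn2 start site was 4.23 (2.74 to 6.76) to 7.33 (4.26 to 13.5) times as high. The intervals of the 7 weaker sites overlapped one another. Ratios among these 7 were not computed, so no order among them is given. In a list filtered on score, lower values could not appear, and the 7 weaker sites had passed that filter.

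**Figure D2:**
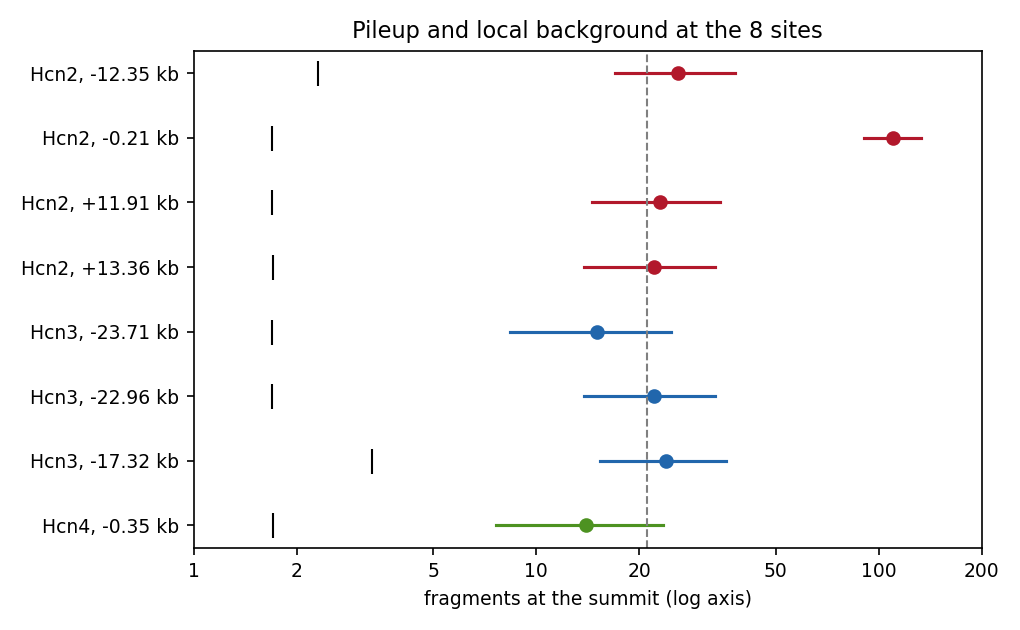
Number of ChIP fragments at the summit (horizontal log axis) for the 8 sites, named by gene and distance from its 5′ end. Points are pileups, coloured lines 95% exact Poisson intervals, black marks the local background, and the dashed line the median pileup of all sites, 21. Only the Hcn2 start site, at 110, lies clear of the others.

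All 3 genes had at least 1 site, as did 12648 of 21938 protein-coding genes, or 57.7%, so that having a site is common. At least 4 sites, the number at Hcn2, were found for 10.9% of genes. A summit in the gene body was found for Hcn2 alone of the 3, against 32.4% of genes, and a summit within 1 kb of the 5′ end for Hcn2 and Hcn4, against 23.2%. The number of sites was greater than at Hcn3 for 10.9% of genes and greater than at Hcn4 for 32.4%. A stronger strongest site than that of Hcn2, Hcn3 and Hcn4 was found for 2.45, 34.0 and 54.1% of genes. The surroundings differed too. Within 30 kb of its 5′ end, Hcn2 had 3 other protein-coding starts and Hcn3 had 4, while Hcn4 had 0 and the median gene had 1. Counting only sites whose nearest start was that of the gene itself left 3 sites at Hcn2, 0 at Hcn3 and 1 at Hcn4. This assignment was chosen after seeing the data.

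**Figure D3:**
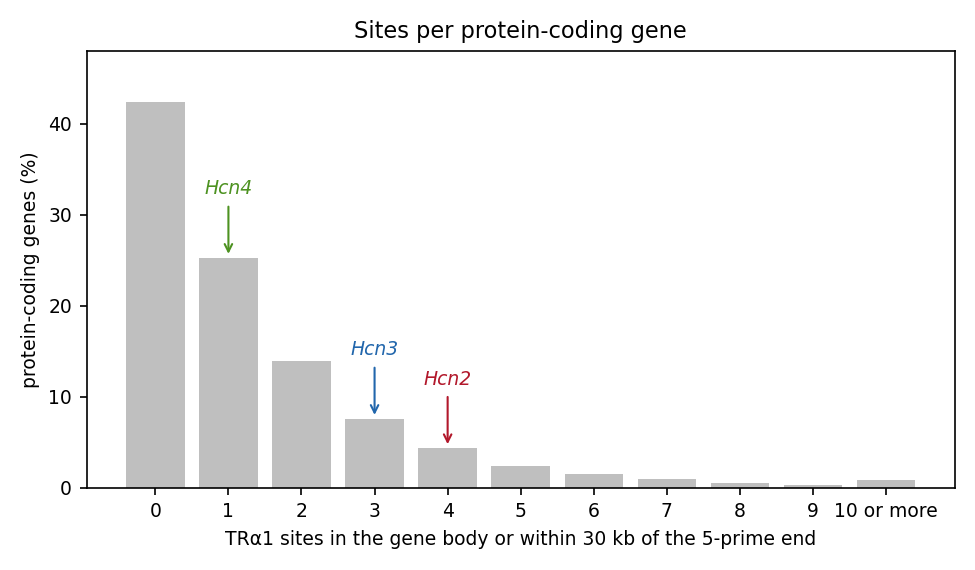
Share of protein-coding genes (vertical axis, %) by the number of TRα1 sites in the gene body or within 30 kb of the 5′ end (horizontal axis). Arrows mark Hcn4 with 1 site, Hcn3 with 3 and Hcn2 with 4.

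The values just inside and just outside the search region were as follows. The nearest site outside it was 34965 bp upstream of Hcn2, with 55 fragments at its summit and an enrichment of 14.5-fold, and the most distant sites inside it were 12354 bp upstream and 13362 bp downstream. At Hcn3 the nearest sites outside lay 56853 bp upstream and 67589 bp downstream, with fold enrichments of 6.29 and 7.84. At Hcn4 they lay 171296 bp upstream and 79925 bp downstream, with 9.11 and 4.95.

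Of the 8 sites, 6 had their summit within 1 kb of the 5′ end of a protein-coding gene, against 20.4% of all sites. The other 2 were the intronic sites of Hcn2. The rule required the 8 sites to lie in a gene or within 30 kb of its 5′ end. No such limit applied to all sites, so these shares are not like for like. The GC content within 100 bases of the summit was 48.3% in intron 4 of Hcn2, 73.6% at the start of Hcn4 and between 60.7 and 69.7% at the other 6, with medians of 50.7% for all sites and 66.2% for sites within 1 kb of a start.

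A DR4 element was not found in any of the 8 sites when at most 2 mismatches were allowed in the 12 half-site bases. Such a match was present in 17.3% of all sites. The best match within 100 bases of the summit is shown for 7 of the sites on its own strand, with capitals for half-site bases equal to AGGTCA. Where several matches were equally good, the one closest to the summit is given.

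Hcn2 upstream, at Bsg: AGGgCAgtccAGGctc
Hcn2 intron 3: gGGTCAagtgAGGaCg
Hcn2 intron 4: AGGcCAttctAGGctA
Hcn3 upstream, at Scamp3: AGGggcgtgtAGGgCA
Hcn3 upstream, at Fam189b: AGGTgggggatGGTgg
Hcn3 upstream, in Fam189b: gtGaCAgaggAGGcCA
Hcn4 start: tGGTCAcccggGtTCt

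The 2 intronic sites of Hcn2 had a match with 3 mismatches, 39 and 63 bp from the summit. The start site of Hcn2 had a best match with 4 mismatches, as had 4 of the other sites, and the site at the 5′ end of Fam189b had 5. The best match over all sites had 4 mismatches in 42.0% and at most 2 in 13.1%. Among sites within 1 kb of a start the latter share was 6.35%. These matches say nothing about binding.

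**Figure D4:**
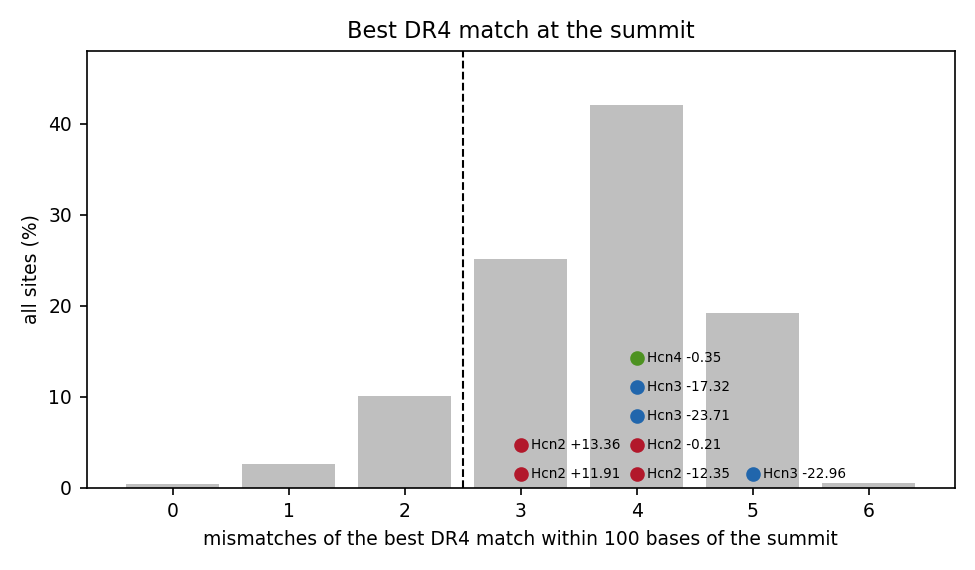
Mismatches to DR4 of the best match within 100 bases of the summit (horizontal axis) and the share of all sites with that number (vertical axis, %). Points with gene and distance in kb mark the 8 sites and have no vertical scale. The dashed line is the limit of 2 mismatches, and all 8 sites lie to its right.

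DR4 matches did occur near the genes, outside the sites. The search regions held 8 matches with at most 2 mismatches at Hcn2, 10 at Hcn3 and 14 at Hcn4. None of these 32 lay in a site, and in the genome 1.82% of the 290078 matches did. This corresponds to 1.33, 1.67 and 2.01 matches in 10 kb, against 1.10 in the genome. The closest to the consensus, with 1 mismatch, were 2 at Hcn2 and 1 at Hcn3. They lie at chr10:79701457-79701472 on the plus strand, 15170 bp upstream of Hcn2, at chr10:79724013-79724028 on the plus strand, 7386 bp downstream of the Hcn2 start within the gene, and at chr3:89168652-89168667 on the minus strand, 8463 bp upstream of Hcn3.

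Hcn2, 15170 bp upstream: tGGTCAtgggAGGTCA
Hcn2, 7386 bp downstream: AGGTCAgagtgGGTCA
Hcn3, 8463 bp upstream: AGGTCAgtccAGGcCA

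The distance from these to the nearest assigned summit was 2816, 4526 and 8858 bp. They were thus well clear of the sites.

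Exact half-sites were found in some of the 8 sites. AGGTCA without a mismatch was present within 100 bases of the summit in 3 of 8 sites. The share was 17.8% of all sites and 12.6% of those within 1 kb of a start. They were the sites at the start and in intron 4 of Hcn2 and at the 5′ end of Fam189b. The site in intron 4 of Hcn2 held 1 copy, gcaAGGTCA, 92 bp from its summit. The Hcn3 site at the 5′ end of Fam189b held 1 copy, agcAGGTCA, 26 bp from its summit.

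The other motifs were counted in the same windows. The GC box occurred around the summits at Scamp3 and at the start of Hcn4, in 2 of 8 sites, against 18.2% of all sites and 52.8% of those within 1 kb of a start. The AP-1 element TGANTCA was found in 1 site, that in intron 4 of Hcn2, against 11.5% of all sites. CCAAT was found in 2 sites, and the NRF1 element, the E-box CACGTG and the ETS element CCGGAA in 1 site each, all at Bsg or Scamp3. The shares of all sites were 19.9, 2.14, 4.68 and 5.96%, and those of sites within 1 kb of a start 18.4, 8.03, 6.56 and 16.6%. The cyclic AMP response element TGACGTCA and the EGR element GCGNGGGCG were found in none of the 8. Their shares were 0.542 and 2.84% of all sites, and 1.49 and 9.99% of those within 1 kb of a start. These matches are letters in a window and not measured binding.

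Genes that act with HCN channels were then counted by the same rule. Of 12 genes for binding partners and regulators, all had at least 1 site, beside 57.7% of all protein-coding genes, but their median length was 56.4 kb against 17.4 kb for all genes, and long genes take up more sequence. Pex5l, which encodes the auxiliary subunit TRIP8b, had 3 sites, and the strongest, with a fold enrichment of 17.8, lay within 1 kb of its 5′ end. Mrvi1, whose product IRAG1 acts on HCN4, had 1 site with a fold enrichment of 13.3 at its 5′ end. The scaffold gene Magi2 had 13 sites and the ubiquitin ligase gene Nedd4l had 15, all in the gene body, with highest fold enrichments of 20.8 and 10.8. The single sites of Kcne2, Lrmp, Cav3, Flna and Src had fold enrichments between 5.58 and 7.81. Those of Kcne2, Cav3, Flna and Src lay outside the gene body and more than 1 kb from the 5′ end. Kctd3, Apba2 and Grasp had 2, 3 and 6 sites with highest values of 6.74, 9.99 and 7.84. None of these genes therefore reached the fold enrichment of the Hcn2 start site.

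A second list held 14 related channel genes, for channels with a cyclic nucleotide-binding domain or a domain homologous to it. Their median length was 44.8 kb. Of the 14 genes, 9 had a site, or 64.3%, near the 57.7% of all protein-coding genes. The 5 without one were Cnga1, Cnga2, Cnga3, Cngb1 and Cngb3, which encode channels of photoreceptors and olfactory neurons and were named after their values had been seen. Cnga4, which also encodes an olfactory channel subunit, had 2 sites outside its body and more than 1 kb from its 5′ end, one of them with a fold enrichment of 61.2. The potassium channel genes Kcnh1 to Kcnh8 each had between 1 and 13 sites. Kcnh4 and Kcnh1, with 5 and 13 sites, had sites of 20.7 and 18.5 within 1 kb of the 5′ end, the highest such values in this list. Kcnh5 and Kcnh2 had 15.0 and 6.64 there. The other 4, Kcnh3, Kcnh6, Kcnh7 and Kcnh8, had no site within 1 kb of the 5′ end. The start of Hcn2 was thus more strongly enriched than the start of any gene of these 2 lists.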

How the data were processed

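TRα1 ChIP-seq of striatum was analysed from 1 deposited peak list. The authors made it with Bowtie on GRCm38 and MACS, on a Galaxy server, and kept peaks scoring 60 or more. The processing notes of the submitters name Bowtie2 2.3.2.2 and MACS2 2.1.1.20160309.0. Pooling of the 2 ChIP libraries and the treatment of duplicate reads are not given in the sources used here, and the depth of each library is unknown.

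The deposited pileup is a signal, the fragment coverage at the summit, and was read as a count because it held whole numbers. The deposited fold enrichment is the ratio of pileup to local background with 1 added to each, from which the background was computed. The −log10 p that the authors deposited is not printed, and the score deposited by the authors is 10 times −log10 q without decimals.

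GENCODE vM21 without mitochondrial genes gave 21938 protein-coding genes. RefSeq starts and the sequence of GRCm38.p6 came from RefSeq, where 2 of the 3 genes were matched in the promoter table and Hcn3 was not. Motifs were searched on both strands, and they may overlap. DR4 allowed 2 mismatches in place of the study's matrix. The named genes were the 3 HCN genes, the genes whose starts lay within 30 kb of their sites, the 5 genes most like Hcn2, and members of the 2 related lists. The genes, lists and motifs were chosen with earlier results of these data known. The paper displays the promoter region of Hcn2 as an example of binding patterns, so Hcn2 was not chosen blind to its sites. A neighbouring gene and a sequence are not reported here. No hypothesis test was run. Alternatives were other distances, scores, starts, overlaps, assignments and mismatch limits. The software was Python 3.11.15 with matplotlib 3.10.9, scipy 1.17.1, pandas 2.3.3 and numpy 2.4.6, and the search was tested on simulated data.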

Additional observations from a re-analysis of the deposited data

How the results depend on the processing

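Of 57 values under alternatives, 35 stayed within the counting interval or within 1.5 times. A score of at least 200 left 1 site at Hcn2, 0 at Hcn3 and 0 at Hcn4. The 12 HCN partner genes with a site then became 4, beside 30.6% of all protein-coding genes at that score. Within 10 kb of the 5′ end there was 1 site at Hcn2, 0 at Hcn3 and still 1 at Hcn4. At that distance 7 of the 12 partner genes had a site, beside 35.9% of all protein-coding genes. Within 100 kb there were 15, 10 and 2 sites. The share over all genes was not computed at 100 kb, so these counts cannot be called high or low. The highest fold enrichment at Hcn3 then became 34.0, while that at Hcn2 remained 41.3 under every alternative. Assignment to the nearest start left 0 sites at Hcn3, an alternative chosen after seeing the data. So was the count of partner and related genes without the gene body, which gave 10 and 7. No share over all genes is given for that count. Where no site was left at Hcn3 or Hcn4, no highest fold enrichment could be given. DR4 was found in 2 of the 8 sites with at most 3 mismatches, and also in 2 when only the bases within 100 of the summit were searched, where 38.2% of all sites had such a match. The regions of Hcn2, Hcn3 and Hcn4 then held 75, 71 and 92 matches, and 2, 1 and 0 with at most 1 mismatch. The 12648 protein-coding genes with a site became 25091 among all annotated genes, 7867 within 10 kb and 6712 with a score of at least 200. No paired analysis was possible because the result comes from no test and the list has no columns for single libraries, and no library could be left out for the same reason.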

Other observations

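Genes with a pattern like that of Hcn2 were sought among the 503 other protein-coding genes with 4 sites by the same rule and a site within 1 kb of the 5′ end. Likeness was the difference in highest fold enrichment on the log2 scale. The closest was Itsn2, an adaptor gene of endocytosis, with a fold enrichment of 40.4 at its 5′ end. The next 4, Col11a2, H2-Ke6, Ring1 and Rxrb, are neighbours on chromosome 17 and shared 1 highest value of 40.4, which lay within 1 kb of the 5′ end of Rxrb only. Rxrb encodes a form of RXR, with which TRα1 pairs on DNA. The likeness is a description over 1 peak list and says nothing of shared control.

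The peak numbers had gaps, and whether these are calls removed by the score threshold was not tested. In the whole list 50.8% of the numbers up to 47234 were present. Between the start site of Hcn2 and the site in its intron 3, a distance of 10598 bp, 1 number was missing. Between the sites at Fam189b and the next site upstream of Hcn3, 3 were missing, and 2 were missing between the Hcn4 site and the site before it.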
